A study of Mus musculus with 2 samples.

Results

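Goblet cells are the mucus-making cells of the gut lining. They differentiate in the crypts away from dividing progenitors under the transcription factor Atoh1, fold large gel-forming mucins in an enlarged endoplasmic reticulum (ER), decorate them with sugars in the Golgi and release them from granules together with small secreted peptides. In the rectum they lie among absorptive colonocytes, which take up salt and water. At the anorectal junction this glandular lining meets the stratified epithelium of the anal canal across a transition zone.

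The cells described here are goblet-like cells of the mouse rectum, taken from 2 single-cell RNA libraries of the anorectal junction. They were chosen as cells that the authors had placed in their Rectum cluster and in which at least 5 unique molecular identifiers (UMIs, one per captured transcript) were counted over Muc2 and Fcgbp. Muc2 encodes the gel-forming mucin of intestinal mucus and Fcgbp encodes a protein cross-linked to it. The normal library held 12 such cells among 63 Rectum cells and 939 cells of the authors' table. The wounded library held 124 among 397 Rectum cells and 4147 cells. In all, 136 of 460 Rectum cells and of 5086 cells were chosen, and the 51 and 273 remaining Rectum cells served as the comparison.

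Both libraries came from K17CreERT2;R26R-GFP mice of strain C57/BL6J given tamoxifen, in which the Krt17 promoter drives the recombinase that switches on a ZsGreen1 reporter. The normal library was prepared without a wound, and the wounded library 1 week after EDTA and brushing had stripped rectal crypts near the transition zone of mice 2 to 4 months old. An age of 6 to 8 weeks is stated for the mice of the in vivo experiments in general, and none for the unwounded pool by itself. The general cell isolation protocol pooled tissue from at least 5 mice, and cells were sorted as EpCam-positive without blood, endothelial or fibroblast surface markers. With 1 library per condition, neither the animals nor the conditions had replicates, so no p-value was computed and every interval at 95% covers counting error only. No sequence barcode was shared between the Rectum cells of both libraries.

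The goblet-like cells made up 19.0% of Rectum cells in the normal library (exact binomial interval 10.2 to 30.9) and 31.2% in the wounded library (26.7 to 36.0). Wound and library cannot be told apart. The same limit was met by 0.231% of Anal Canal, 0.535% of Suprabasal and 0 of 257 Basal cells in the normal library. Among the other clusters of the wounded library it was met by 0.524% of Basal, 0.597% of Wound_Stress, 0.678% of Suprabasal, 1.01% of Regeneration and 2.85% of Hybrid cells. What gave rise to these shares was not tested.

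Depth was similar in the normal library, with medians of 10135.5 UMIs in goblet-like and 11024 UMIs in other Rectum cells. Goblet-like cells of the wounded library were deeper, with a median of 12542.5 UMIs (768 to 25564) against 6813 UMIs. Summed over cells, the goblet-like cells totalled 130457 UMIs (normal) and 1524088 UMIs (wounded), so a gene of a given level was measured with less counting error in the wounded library. A median of 9.12% and 10.6% of their UMIs was mitochondrial, against 9.54% and 14.0% in the other Rectum cells.

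The chosen cells carried a median of 15 UMIs of Muc2 and Fcgbp in the normal library (5 to 39) and of 31.5 UMIs after the wound (5 to 412). Both genes fixed the choice and are given as a description. Muc2 (ENSMUSG00000025515, GRCm38 chr7:141690340-141754693, plus strand) had at least 1 UMI in 11 of 12 and 120 of 124 goblet-like cells. Fcgbp (ENSMUSG00000047730, chr7:28071236-28120862, plus strand) had at least 1 UMI in 12 of 12 and 123 of 124. A UMI of either was also present in 7 of 51 and 78 of 273 other Rectum cells, none above 4 UMIs.

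Levels are given as CPM, the UMIs of a gene summed over cells and scaled to 1000000 UMIs of those cells. The 14 cells of the wounded library just inside, with 5 or 6 UMIs, had 14943 CPM of Spink4 and 1544 CPM of Tff3. The 13 cells just outside, with 3 or 4 UMIs, had 4215 CPM of Spink4 and 558 CPM of Tff3, above the 159 CPM of Spink4 in the 195 cells with 0 UMIs. Of the 582 Spink4 UMIs in these 13 cells, 318 were in 1 cell, which also held 40 of their 77 Tff3 UMIs, and Spink4 was 2123 CPM without it. The median of the 13 cells was 7 Spink4 UMIs. Some cells below the limit therefore carried goblet cell transcripts. Each of these bands held 2 cells of the normal library, with 23401 and 5578 CPM of Spink4, where 1 cell held 498 of 584 and 176 of 206 UMIs.

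The name was checked against 7 goblet cell markers that the rule did not count, namely Tff3, Clca1, Zg16, Agr2, Spink4, Spdef and Atoh1. In both libraries the summed level of each of the 7 was over 2-fold higher in the goblet-like cells, although Clca1, Zg16 and Spdef rested on 16, 20 and 20 UMIs in the normal library. There Clca1 and Zg16 each lay in 2 of 12 goblet-like cells, with 8 of 13 and 17 of 18 UMIs in 1 cell. Summed per cell over 13 secreted products other than Muc2 and Fcgbp, goblet-like cells of the normal library ranged from 8060 to 87137 CPM with a median of 47291 CPM, against a median of 1464 CPM in other Rectum cells. Those of the wounded library ranged from 3906 to 154089 CPM with a median of 47774 CPM, against 1328 CPM. The groups overlapped in both libraries. In the wounded library 54 other Rectum cells lay above the lowest goblet-like cell and 1 lay above the 25th percentile of goblet-like cells, 25710 CPM. In the normal library 6 of 51 lay above the lowest goblet-like cell and 1 above the 25th percentile, 36532 CPM.

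**Figure D1:**
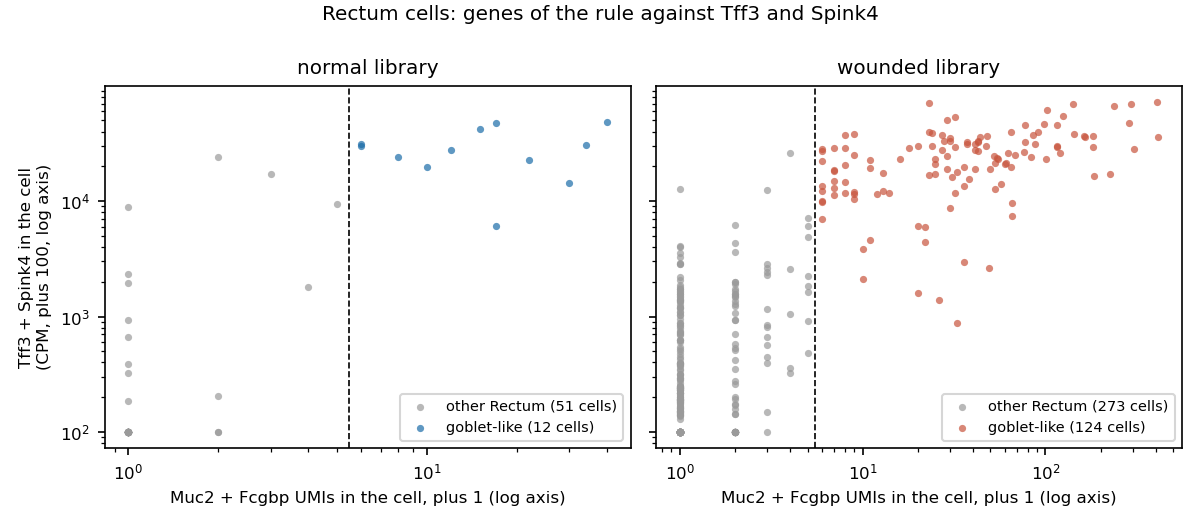
Each point is 1 Rectum cell, with Muc2 and Fcgbp UMIs plus 1 on the horizontal log axis and the summed CPM of Tff3 and Spink4 plus 100 on the vertical log axis, for the normal library (63 cells) and the wounded library (397 cells). The dashed line marks the limit of 5 UMIs, and the 12 and 124 cells to its right sit mostly high on the vertical axis.

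A log2 ratio of goblet-like over other Rectum cells was taken for genes with at least 50 UMIs over both groups. Of 1869 such genes in the normal library, 72 (3.85%) were at least 2-fold higher and 265 (14.2%) at least 2-fold lower in goblet-like cells. Of 7318 in the wounded library, 408 (5.58%) were at least 2-fold higher and 562 (7.68%) at least 2-fold lower. The cells of this contrast were chosen on 2 of its genes and the authors' clustering used many more, so these ratios describe the cells and were not tested. The median ratio over all genes was −0.16 in the normal and −0.09 in the wounded library, and the values of a gene group are read beside these shares and medians.

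Secreted goblet cell products stood highest. Of 13 products present among the features, 12 reached 50 UMIs in the wounded library and all 12 were at least 2-fold higher, with a median log2 ratio of 5.85. Of these products, 7 reached 50 UMIs in the normal library and all 7 were at least 2-fold higher, with a median of 4.04. With a limit of 10 UMIs the medians were 3.82 in the wounded and 2.97 in the normal library. Against Rectum cells with 0 UMIs of Muc2 and Fcgbp they were 6.76 and 6.32. These products include protective peptides, antimicrobial lectins and enzymes of the mucus layer.

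Tff3, a trefoil peptide that aids mucosal repair (ENSMUSG00000024029, chr17:31125306-31129646, minus strand), had 6700 CPM in goblet-like and 74.9 CPM in other Rectum cells of the normal library. The corresponding levels after the wound were 5508 and 79.6 CPM. The log2 ratios were 6.48 (6.04 to 6.96) and 6.11 (5.91 to 6.32). After every cell had been thinned at random to 2000 UMIs, so that depth was equal, a Tff3 UMI was found in 86.1% of goblet-like, 13.8% of other Rectum and 2.42% of stratified cells of the wounded library. Before thinning, Tff3 was found in 118 of 124 goblet-like cells.

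Spink4, a Kazal-type protease inhibitor of goblet cells (ENSMUSG00000028415, chr4:40920052-40931395, plus strand), was the most abundant listed product by UMIs. It had 20175 CPM against 1002 CPM in the normal library, a log2 ratio of 4.33 (4.20 to 4.46). After the wound it had 21493 CPM against 450 CPM, a log2 ratio of 5.58 (5.49 to 5.66). In the wounded library Spink4 was found before thinning in 119 of 124 goblet-like cells. After thinning, which left out 9 cells below 2000 UMIs, Spink4 was present in 112 of 115 and Agr2 in 113 of 115. Spink4 then ranged from 0 to 129 UMIs per 2000 with a median of 36. Some cells rich in the rule's genes had little Spink4, such as 1 cell of 11099 UMIs with 65 UMIs of Muc2 and Fcgbp and 7 of Spink4.

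Agr2, an ER protein needed for mucin assembly (ENSMUSG00000020581, chr12:35992907-36004087, plus strand), was shared more widely. It had 1163 and 849 CPM even in other Rectum cells, and 6332 and 8258 CPM in goblet-like cells. The log2 ratios were 2.45 (2.30 to 2.59) and 3.28 (3.22 to 3.35). Reg4, a secreted C-type lectin (ENSMUSG00000027876, chr3:98222156-98236748, plus strand), had 6799 CPM against 413 CPM in the normal and 3644 CPM against 125 CPM in the wounded library. Its log2 ratios were 4.04 and 4.86. Retnlb, a bactericidal resistin-like peptide, had log2 ratios of 5.47 and 6.62. Klk1, a kallikrein protease, had 2.51 and 3.60, and Guca2a, which encodes the peptide guanylin, had 1.02 and 3.41.

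The remaining products were carried by few cells or hardly counted in the normal library. Clca1, a metalloprotease that processes the mucus gel (ENSMUSG00000028255, chr3:145003817-145032776, minus strand), had 13 UMIs in 2 of 12 goblet-like cells of the normal library and 3 UMIs in the other Rectum cells. Its UMIs in the wounded library numbered 3259 in 62 of 124 goblet-like cells and 20 elsewhere in the cluster, which gave a log2 ratio of 8.11 (7.48 to 8.82). Zg16, a lectin that binds Gram-positive bacteria, was found in 25 goblet-like cells of the wounded library. A single cell held 844 of its 1786 UMIs, and the log2 ratio of 6.61 became 5.71 without that cell. Ang4, an antimicrobial ribonuclease, had 340 UMIs in 13 goblet-like cells of the wounded library and 0 UMIs in the normal library. With 12 goblet-like cells, the normal library bounded the shares of cells with these transcripts loosely.

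**Figure D2:**
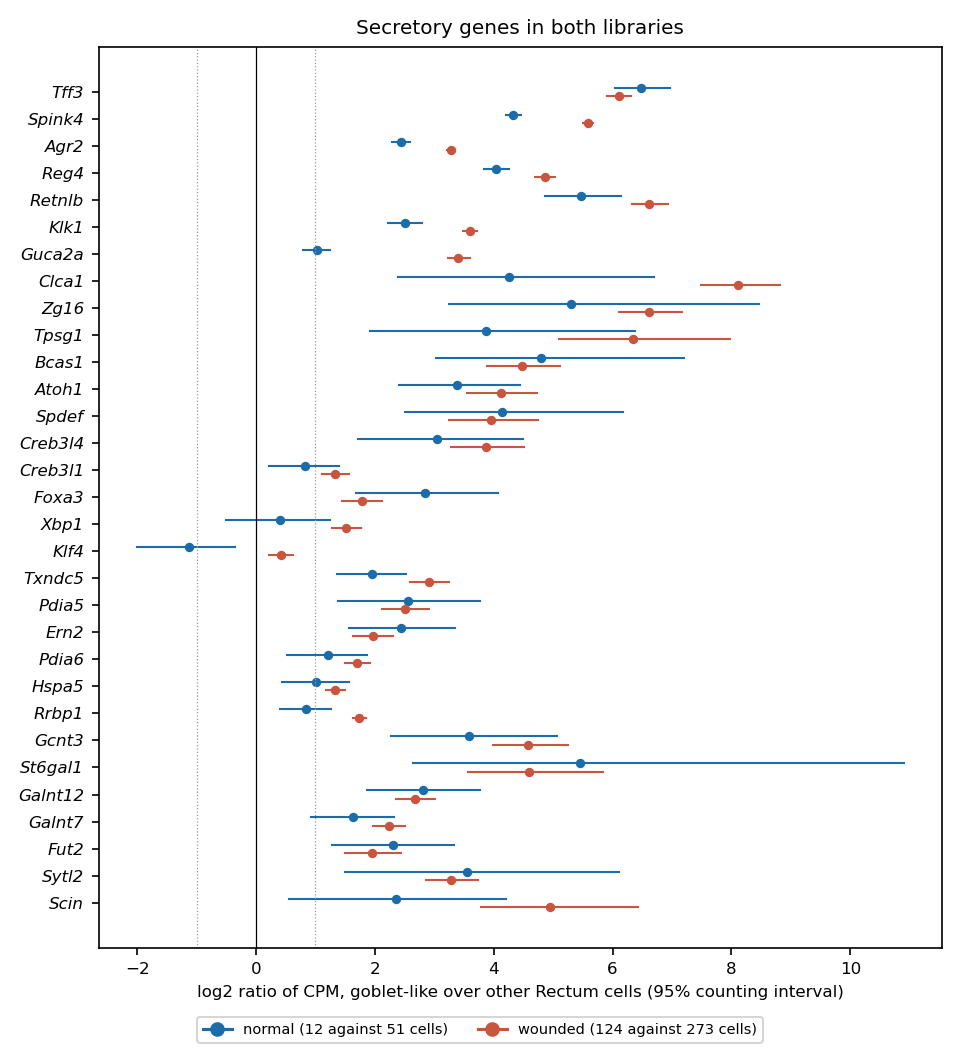
Points are log2 ratios of CPM in goblet-like over other Rectum cells for 31 secretory genes, with lines for the counting interval at 95% and a colour for each library; dotted lines mark 2-fold. Ratios of the normal library (12 against 51 cells) carry wider intervals, and Klf4 is the gene with a ratio below 0 in the normal and above 0 in the wounded library.

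The transcription factors of the secretory lineage were measured at lower counts. Of 12 factors, 10 reached 50 UMIs in the wounded library, 7 were at least 2-fold higher and 0 lower, with a median of 1.43. Atoh1, the factor that commits cells to the secretory lineage (ENSMUSG00000073043, chr6:64729125-64731245, plus strand), had 188 CPM against 10.8 CPM there, a log2 ratio of 4.12 (3.56 to 4.74). Its UMIs lay in 90 of 124 goblet-like and 19 of 273 other Rectum cells. The normal library held 31 Atoh1 UMIs in 8 of 12 goblet-like cells and 13 UMIs in other Rectum cells, and the log2 ratio was 3.39. Spdef, which drives goblet cell maturation, had log2 ratios of 4.14 on 20 UMIs and 3.95 on 182 UMIs.

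Creb3l4, a membrane-bound factor of the secretory pathway, had log2 ratios of 3.04 and 3.87, and Foxa3, a forkhead factor, had 2.85 and 1.78. Xbp1 and Creb3l1, which raise secretory capacity, had smaller ratios, 0.41 (−0.50 to 1.24) and 1.52 for Xbp1 and 0.82 and 1.33 for Creb3l1. Klf4, a factor of differentiated epithelium, was −1.13 in the normal and 0.42 in the wounded library. Only 4 of the 12 factors reached 50 UMIs in the normal library, with 0 at least 2-fold higher and 1 lower, and Atoh1 and Spdef fell below that minimum.

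Folding enzymes and chaperones of the ER were higher by a smaller factor. The wounded library measured 22 of 24 with at least 50 UMIs, 13 were at least 2-fold higher and 0 lower, with a median of 1.08. The normal library measured 13, 5 at least 2-fold higher and 0 lower, with a median of 0.57. Txndc5, a disulphide isomerase, had 279 CPM against 37.1 CPM in the wounded library, a log2 ratio of 2.91 (2.59 to 3.24), and 1.94 (1.36 to 2.52) in the normal library. Pdia5, of the same enzyme family, had 2.51 and Ern2, the gut form of the IRE1 stress sensor, had 1.96 in the wounded library. Ddit3 and Atf4, factors of the PERK branch of the stress response, had −0.56 and 0.16 there.

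The ER stress response element is a promoter motif bound by NF-Y and by ATF6, and these genes were searched for it on both strands, as the letters CCAAT, any 9 bases and the letters CCACG, from 250 bases before to 50 bases after each RefSeq start on GRCm38.p6. The motif was in 7 of 21 listed folding genes with a promoter sequence (33.3%), against 37 of 27025 genes in all (0.137%). It was found in no promoter of the other gene groups. The windows below show a pair of genes that were at least 2-fold higher in the wounded library, Hspa5 and Pdia6, and a pair that were not, Calr and Canx, each read along its own strand with the motif in capitals.
Hspa5 chr2:34772010-34772058, plus strand: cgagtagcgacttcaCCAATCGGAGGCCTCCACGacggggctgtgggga
Pdia6 chr12:17266476-17266524, plus strand: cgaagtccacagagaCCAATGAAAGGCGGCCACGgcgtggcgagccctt
Calr chr8:84847060-84847108, minus strand: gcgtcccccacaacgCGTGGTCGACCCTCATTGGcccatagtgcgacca
Canx chr11:50325785-50325833, minus strand: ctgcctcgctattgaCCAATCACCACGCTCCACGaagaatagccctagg
Calr holds the motif in the reverse orientation and the others in the forward one.

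The 7 genes with these letters were all above 0 in the wounded library, from 0.48 to 1.70 with a median of 0.88, and 3 of 7 were at least 2-fold higher. Of 13 measured folding genes without them, 8 were at least 2-fold higher, with a median of 1.03. The normal library measured 6 genes with these letters, 4 of them above 0, from −0.55 to 1.21 with a median of 0.20, and 6 without them, with a median of 0.94. Hspa5, the ER chaperone BiP, had 512 CPM against 203 CPM in the wounded library, a log2 ratio of 1.34 (1.17 to 1.50). Pdia6, a disulphide isomerase, had 348 CPM against 107 CPM, a log2 ratio of 1.70. Calr and Canx, the lectin chaperones calreticulin and calnexin, had 0.88 and 0.48. The same pair had 0.14 (−0.31 to 0.58) and −0.51 (−1.37 to 0.26) in the normal library.

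Genes of protein translocation and vesicle traffic were slightly higher across the list. All 24 were above 0 in the wounded library, 7 at least 2-fold, with a median of 0.76, and in the normal library 19 of 20 were above 0 and 1 at least 2-fold, with a median of 0.40. Rrbp1, a ribosome-binding protein of the rough ER, had 1253 CPM against 375 CPM in the wounded library, a log2 ratio of 1.74 (1.63 to 1.85), and 0.84 (0.41 to 1.26) in the normal library. Kdelr3, a receptor that returns ER proteins, had 2.68 in the wounded library, and Tmed3, a cargo receptor, had 1.62.

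More mucin-modifying enzymes were higher than lower in the wounded library. Of 28 genes of O-glycosylation and sulphation, 21 reached 50 UMIs in the wounded library, 14 were at least 2-fold higher and 1 lower, with a median of 1.57. Only 6 reached that minimum in the normal library, where 1 was higher and 1 lower, with a median of 0.30. Gcnt3, which branches mucin sugar chains, had 222 CPM against 9.28 CPM in the wounded library, a log2 ratio of 4.58 (3.99 to 5.25), and 3.58 in the normal library on 26 UMIs. St6gal1, a sialyltransferase, had 4.60, Galnt12, which starts sugar chains on mucins, had 2.68, and Fut2, the fucosyltransferase of secretor status, had 1.96 in the wounded library.

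Gal3st2, a sulphotransferase with closely related copies, had 41 UMIs in 36 goblet-like cells and 0 UMIs in other Rectum cells of the wounded library. Against 3 UMIs its log2 ratio was at least 4.54. Slc26a2, a sulphate carrier of the cell surface, was the member that was lower, at −1.81 (−3.16 to −0.72) in the normal and −1.64 (−1.99 to −1.30) in the wounded library. Granule release genes split. Of 11 measured in the wounded library 4 were at least 2-fold higher, among them Scin, which severs actin filaments, at 4.95, Syt7, a calcium sensor of exocytosis, at 3.49, and Sytl2, a Rab27 effector, at 3.28. Nlrp6, an inflammasome sensor studied for its part in mucus release, was lower, with 8 UMIs in goblet-like and 147 UMIs in other Rectum cells, a log2 ratio of −3.44 (−4.68 to −2.42).

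Among membrane-bound mucins, Muc13 was near equal, with log2 ratios of 0.24 (−0.04 to 0.52) and 0.39 (0.28 to 0.50). Muc3, a surface mucin whose reads may be shared with Muc3a, had 40.0 CPM in goblet-like and 570 CPM in other Rectum cells of the wounded library, a log2 ratio of −3.83. Its ratio in the normal library was −1.38, and 60 of its 61 UMIs lay in 1 goblet-like cell. Krt8 and Krt18, the keratin pair of glandular epithelium, had ratios of opposite sign in both libraries. Krt8 was −1.36 (−1.61 to −1.12) in the normal and −0.49 (−0.56 to −0.43) in the wounded library. Krt18 was 0.58 (0.25 to 0.91) and 1.08 (0.99 to 1.18). Of the whole list of columnar epithelium genes, 2 of 14 were at least 2-fold lower in the normal and 1 of 15 at least 2-fold higher in the wounded library. Epcam, the surface marker used for sorting, had −0.20 and −0.04.

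More absorptive colonocyte genes were lower than higher. The wounded library measured 23 of 28, 12 at least 2-fold lower and 3 higher, with a median of −1.16. The normal library measured 14, 7 at least 2-fold lower and 3 higher, with a median of −1.19. Summed over the list within each cell, the median was 4318 CPM in goblet-like against 3635 CPM in other Rectum cells of the normal library, and 4978 against 2741 CPM in the wounded library. The pooled sums had the opposite order, with 4208 CPM in goblet-like against 7910 CPM in other Rectum cells of the normal library and 5650 against 6376 CPM in the wounded library. Car1, a carbonic anhydrase (ENSMUSG00000027556, chr3:14766216-14808368, minus strand), had 4.59 CPM in goblet-like and 128 CPM in other Rectum cells of the wounded library, a log2 ratio of −4.80 (−6.13 to −3.75). A lone goblet-like cell of the normal library held 1 UMI of Car1, against 155 UMIs in 9 other Rectum cells. Slc26a3, the chloride exchanger of the colon surface, had 0 UMIs in normal goblet-like cells, a log2 ratio of at most −2.82 against 3 UMIs, and −4.25 in the wounded library. After thinning it was found in 0 of 115 goblet-like cells and 12.1% of other Rectum cells, and Aqp8, a water channel, had 1 UMI against 146 UMIs in the wounded library.

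Some absorptive genes were at least 2-fold higher in both libraries. Hsd11b2, the enzyme that keeps cortisol and corticosterone off the mineralocorticoid receptor (ENSMUSG00000031891, chr8:105518755-105523988, plus strand), had 774 CPM against 80.2 CPM in the normal library. It had 1177 CPM against 49.5 CPM in the wounded library, and the log2 ratios were 3.27 (2.75 to 3.81) and 4.57 (4.31 to 4.84). At equal depth an Hsd11b2 UMI was found in 89.6% of goblet-like and 8.79% of other Rectum cells of the wounded library. Guca2b, the peptide uroguanylin, had log2 ratios of 2.76 and 2.75. Lypd8, an anti-flagellar surface protein, was the most abundant absorptive gene by UMIs and had −1.81 and −0.77.

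Cell cycle genes were lower in the goblet-like cells of both libraries. Of 18 cell cycle genes 17 were measured in the wounded library, 15 at least 2-fold lower and 0 higher, with a median of −2.04. All 8 measured in the normal library were at least 2-fold lower, with a median of −3.04. Mki67, the proliferation marker, had 1 UMI in 1 of 12 goblet-like cells and 85 UMIs in 17 of 51 other Rectum cells of the normal library. After the wound Mki67 had 85 UMIs in 16 of 124 and 593 UMIs in 100 of 273 cells, with a log2 ratio of −2.04 (−2.38 to −1.71). At equal depth 7.83% of goblet-like and 21.8% of other Rectum cells of the wounded library held an Mki67 UMI.

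Of 14 measured stem and progenitor genes of the wounded library, 7 were at least 2-fold lower and 1 higher, while of 2 measured in the normal library 0 were lower and 1 was higher. Lgr5, the receptor that marks crypt stem cells, had 4 UMIs in goblet-like and 76 UMIs in other Rectum cells, a log2 ratio of −3.48 (−5.40 to −2.07). Smoc2, a secreted protein enriched in the same stem cells, had −1.79. Slc12a2, the chloride-importing cotransporter of the crypt base, was the one that was higher, at 1.65 and 1.45 in the normal and wounded library.

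Notch signalling keeps crypt progenitors from the secretory fate, and 3 of its 16 listed genes were measured in the wounded library. Dll1, a ligand of secretory precursors, had 55 UMIs in 39 goblet-like cells and 16 UMIs in 10 other Rectum cells, a log2 ratio of 2.54 (1.72 to 3.45). Notch1, a receptor, had −2.27 (−3.39 to −1.32) and its target Hes1 had −1.40 (−1.92 to −0.90). Dll4, a second ligand, had 22 UMIs against 1 UMI, below the minimum. Of the same list only Hes1 was measured in the normal library, at −0.41 (−1.43 to 0.49). Kit, a receptor used to mark deep crypt secretory cells, had 96 UMIs in 61 goblet-like cells of the wounded library against 18 UMIs, a log2 ratio of 3.18 (2.44 to 3.99).

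**Figure D3:**
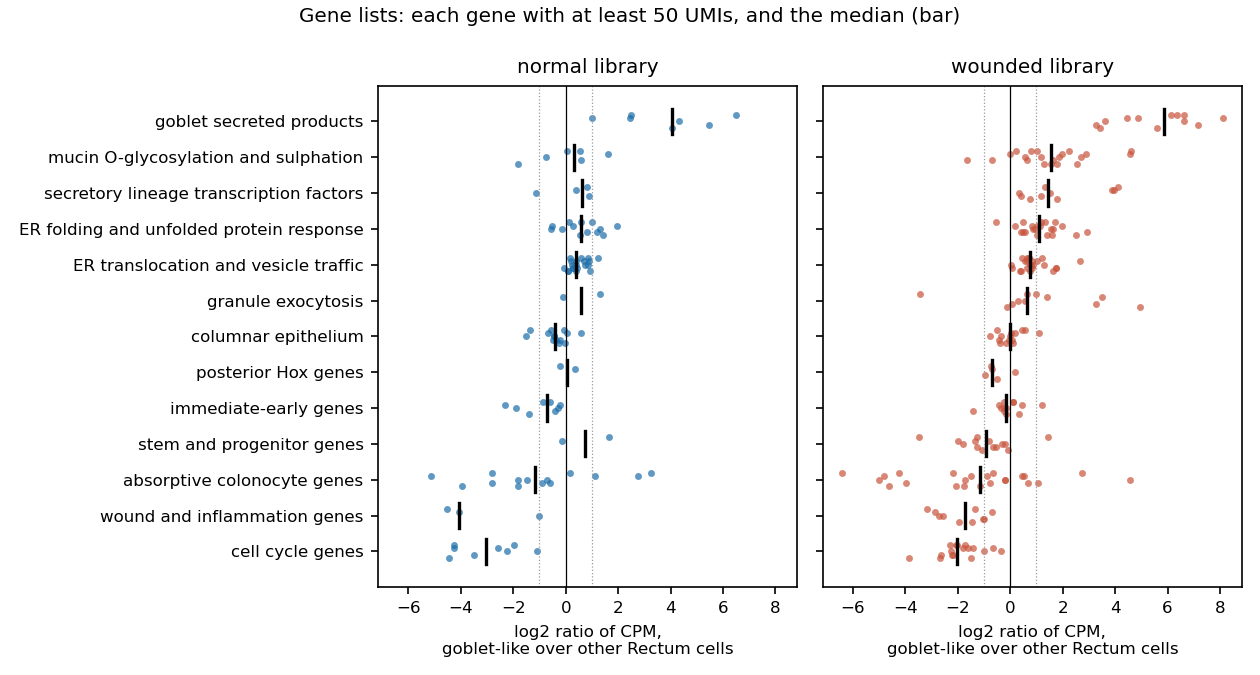
Each dot is the log2 ratio of CPM in goblet-like over other Rectum cells for 1 gene with at least 50 UMIs over both groups, arranged in 13 gene groups for each library, with genes at 0 UMIs drawn at their bound, and the bar is the group's median. Secreted products (medians 4.04 and 5.85) lie farthest to the right, and cell cycle genes (−3.04 and −2.04) lie well to the left of 0.

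Markers of other cell types were looked for in the same cells. The summed UMIs of 20 enteroendocrine genes were 3 and 86 in goblet-like cells of the normal and wounded library, and 2 of them were measured in the wounded library, at −0.94 and 0.95. Of 13 tuft cell genes 0 were measured, and their summed UMIs were 0 and 10. Of the stromal, endothelial and immune list 4 genes were measured in the wounded library, and all 4 were lower in goblet-like cells. Col1a1, Col3a1 or Dcn, transcripts of fibroblasts, were present in 4 of 124 goblet-like and in 76 of 273 other Rectum cells (27.8%), which had a median depth of 3397.5 UMIs. With those 76 cells left out, 421 genes were at least 2-fold higher and 571 at least 2-fold lower.

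Keratins of the stratified epithelium were low in most goblet-like cells and high in few. Over Krt5, Krt14, Krt15 and Krt17, at least 5 UMIs were counted in 2 of 12 goblet-like and 4 of 51 other Rectum cells of the normal library. After the wound this held for 10 of 124 goblet-like (8.06%) and 34 of 273 other Rectum cells (12.5%). Krt17, the keratin whose promoter drove the lineage label, had 265 UMIs in 28 goblet-like cells of the wounded library, and 1 cell held 160 of them. Its thinned share was 7.83% in goblet-like, 14.2% in other Rectum and 50.9% in stratified cells. The reporter transcript ZsGreen1 was among the features of the normal library alone, where it had 0 UMIs in the 63 Rectum cells and was found in 41 of 876 stratified cells.

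The genes with the highest and lowest ratios of the wounded library were named by rank among genes with at least 100 UMIs. The 3 highest, Igkc, Igha and Jchain, are immunoglobulin genes of plasma cells, and a single goblet-like cell of 23448 UMIs held 5815 UMIs of Igkc. Psca, the prostate stem cell antigen, had all 187 UMIs in 1 cell. The other 11 of the 15 highest were Clca1, Ang4, Muc2, Retnlb, Zg16, Fcgbp, Spink1, Tpsg1, Tff3, Lyz1 and Spink4. Spink1, a trypsin inhibitor, had 2865 UMIs in 68 goblet-like cells against 59 UMIs, a log2 ratio of 6.36. Lyz1, a lysozyme with the close copy Lyz2, had 614 UMIs in 30 goblet-like cells, a log2 ratio of 5.78.

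The ranking was repeated, after these values had been seen, with the top goblet-like cell of each gene removed, and 4 genes then entered the 15 highest. They were Gm1123, Sval1, Ccl6 and Rep15. Sval1, named for its likeness to a seminal vesicle antigen, had 6120 CPM in goblet-like and 141 CPM in other Rectum cells and lay in 117 of 124 goblet-like cells. Ccl6, a chemokine, had 1705 CPM against 40.2 CPM and was also high in the normal library, with 152 UMIs in 12 of 12 goblet-like cells against 4 UMIs in 4 other Rectum cells, for a log2 ratio of 7.38. Rep15, a Rab15 effector, lay in 98 of 124 goblet-like cells.

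The 10 lowest held surface genes of the mature colon and fibroblast genes. Aqp8 was at −6.43, Fxyd4, a sodium pump regulator, at −5.71, and Tgm3, a transglutaminase, at −5.42. Clca4a and Clca4b, near copies of each other and relatives of Clca1, were at −5.12 and −5.73. Ly6g and Ly6m, members of another family of close copies, were at −6.48 and −5.00. Ly6g had 2 UMIs in goblet-like cells and 304 UMIs in 50 other Rectum cells. Col1a1, Dcn and Col3a1, at −6.68, −6.25 and −5.10, rest on the cells with fibroblast transcripts described above. Aqp8 and Col1a1 had 1 UMI each in goblet-like cells, and Col3a1 had 7 UMIs, all in 1 goblet-like cell.

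The genes separating goblet-like from other Rectum cells were compared between libraries gene by gene. At least 50 UMIs were counted in both libraries for 1857 genes. Of 99 that were at least 2-fold higher in the wounded library, 97 were above 0 and 55 at least 2-fold higher in the normal library. Of 122 that were at least 2-fold lower, 122 were below 0 and 101 at least 2-fold lower. No gene was at least 2-fold higher in one library and 2-fold lower in the other. Across these 1857 genes, which are not independent replicates, Pearson's r was 0.788 and Spearman's rho 0.596.

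The goblet-like cells differed among themselves. The 115 goblet-like cells of the wounded library with at least 2000 UMIs were compared after thinning, in a random draw separate from that behind the shares of cells with a UMI. In this draw Tff3 was found in 97, Hsd11b2 in 95 and Mki67 in 8 of the 115 cells, against 99, 103 and 9 in the other. Agr2 ranged from 0 to 49 UMIs per 2000 with a median of 13, and Tff3 from 0 to 106 with a median of 6. At this depth Clca1 was found in 40 of the 115 cells, with at most 88 UMIs per 2000, and Zg16 was found in 12 cells. Spearman's rho over these cells, given as a description of 1 library at equal depth, was 0.66 for Clca1 with Spink1 and 0.49 for Clca1 with Tff3. It was −0.39 for Clca1 with Reg4 and −0.36 for Clca1 with Guca2a. Muc2 and Fcgbp fixed the choice of cells, so a rho that includes either of them is shaped by that choice.

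**Figure D4:**
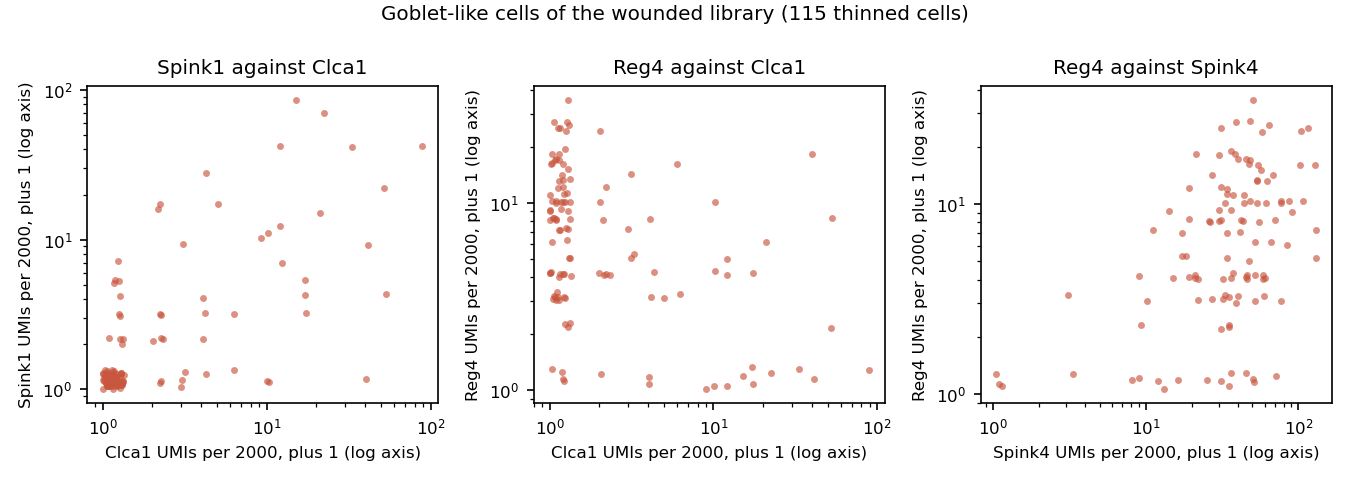
Each point is 1 of 115 goblet-like cells of the wounded library, thinned to 2000 UMIs, with UMIs per 2000 plus 1 on both log axes, slightly offset at random so that points can be told apart, for Spink1 against Clca1, Reg4 against Clca1 and Reg4 against Spink4. Spearman's correlation was 0.66 for Spink1 with Clca1 and −0.39 for Reg4 with Clca1, and some cells are high in both Reg4 and Clca1.

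To show these 2 sets of products by level, the wounded goblet-like cells were divided by Clca1, a split chosen after these correlations had been seen, so that its differences restate them. The 49 cells with at least 3 Clca1 UMIs had a median depth of 13489 UMIs, and the 62 cells with 0 had 12354 UMIs. Zg16 was 3038 CPM in the first, or 1645 CPM without the cell that held 844 of its 1775 UMIs there, and 7.61 CPM in the second. Spink1 was 4497 and 171 CPM. Tff3 was 9722 and 2386 CPM. Krt20, a keratin of mature surface cells, was 70.2 and 3.80 CPM, from 41 and 3 UMIs, and 39.1 CPM in the first without the cell that held 19 of the 41.

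Other genes had the opposite or no difference. Reg4 was 2630 CPM in the cells with Clca1 and 4561 CPM in those without, Guca2a was 857 and 1368 CPM, and Guca2b was 113 and 349 CPM. Lyz1 was 80.4 and 528 CPM. Spink4 was close, at 22064 and 21380 CPM. Of the normal goblet-like cells 2 had at least 3 Clca1 UMIs, and in them Reg4 was 464 CPM, against 7247 CPM in the 10 cells without Clca1.

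Goblet-like cells of the wounded library were set beside those of the normal library. Of 3932 genes with at least 50 UMIs over both, 639 (16.3%) were at least 2-fold higher and 193 (4.91%) at least 2-fold lower in the wounded library, with a median log2 ratio of 0.12. After every cell had been thinned to 2000 UMIs, 285 were higher and 520 lower, which turned the balance of directions. Neither replicate libraries nor a common version of the counting software stood behind this difference, the rule itself used Muc2 and Fcgbp in both, and condition and library cannot be told apart. Of 12 secreted products 4 were at least 2-fold higher and 0 lower, with a median of 0.61. Among the other Rectum cells 8.76% of 6403 genes were at least 2-fold higher and 5.40% lower, and of the secreted products 0 of 7 were higher and 3 lower, with a median of −0.45.

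Clca1 was 99.6 CPM in normal and 2138 CPM in wounded goblet-like cells, a log2 ratio of 4.42 (3.65 to 5.33), and 0.56 in other Rectum cells. Zg16 was 3.09 higher on the log2 scale, from 18 UMIs in 2 normal cells, and 2.18 (1.51 to 2.94) without the wounded cell that held 844 of 1786 UMIs. Of the 18 normal UMIs, 17 lay in 1 cell, which was kept in both values. Spink1 had 483 and 1880 CPM, a log2 ratio of 1.96, and Lyz1 had 2.55. The genes of the rule were higher as well, Fcgbp by 1.83 and Muc2 by 1.47 on the log2 scale. Cells rich in Clca1 were 2 of 12 in the normal and 49 of 124 in the wounded library, and the part of this makeup in the differences was not tested. Barcodes outside the authors' tables that met the limit had the opposite order for Clca1 and Zg16. Among their non-mitochondrial UMIs, Clca1 was 4642 CPM in the normal and 1338 CPM in the wounded library, and Zg16 was 14060 and 1050 CPM.

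Reg4 was 6799 CPM in normal and 3644 CPM in wounded goblet-like cells, a log2 ratio of −0.90. Guca2a was −0.64 in goblet-like and −3.03 in other Rectum cells. Tff3 was −0.28 (−0.38 to −0.18), Spink4 0.09 (0.03 to 0.15) and Agr2 0.38 (0.28 to 0.49). Of 10 secretory transcription factors 0 were at least 2-fold higher or lower, and Atoh1 was −0.34 (−0.87 to 0.25). Of 20 folding genes 1 was at least 2-fold higher. That gene was Dnajc3, an inhibitor of the stress kinase PERK, at 1.51.

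Some gene groups with more higher than lower genes also had more higher than lower in other Rectum cells. Of 7 stratified epithelium genes 6 were at least 2-fold higher in wounded goblet-like cells, with a median of 1.38, and 7 of 8 in other Rectum cells, with a median of 1.79. Krt17 was 1.70 and 1.74 in these groups and Krt14 was 1.30 and 2.08. Most Krt17 UMIs of the wounded goblet-like cells lay in a single cell, as given above, and that cell was kept here. Of 12 immediate-early genes 6 were at least 2-fold higher in goblet-like cells, with a median of 0.88, and 4 of 13 in other Rectum cells, where 1 was lower, with a median of 0.21. Jun, a subunit of the AP-1 factor, was 1.82 and 1.78. In goblet-like cells the stratified list summed to 40 normal and 1461 wounded UMIs, and the immediate-early list to 199 and 4100. Genes of both lists thus reached the minimum mainly through the wounded cells. Their counts therefore do not compare goblet-like with other Rectum cells. Of 5 measured cell cycle genes 3 were at least 2-fold higher in goblet-like cells, and of 17 in other Rectum cells 0 were higher and 3 lower. The 3 higher genes were Mki67, Pcna and Top2a, which had 1 or 2 UMIs each in the 12 normal goblet-like cells. They reached the minimum through the wounded cells, so goblet-like and other Rectum cells cannot be compared on this count. Krt8 and Hsd11b2 were higher in goblet-like cells, at 0.66 and 0.60, and lower in other Rectum cells, at −0.21 and −0.70.

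**Figure D5:**
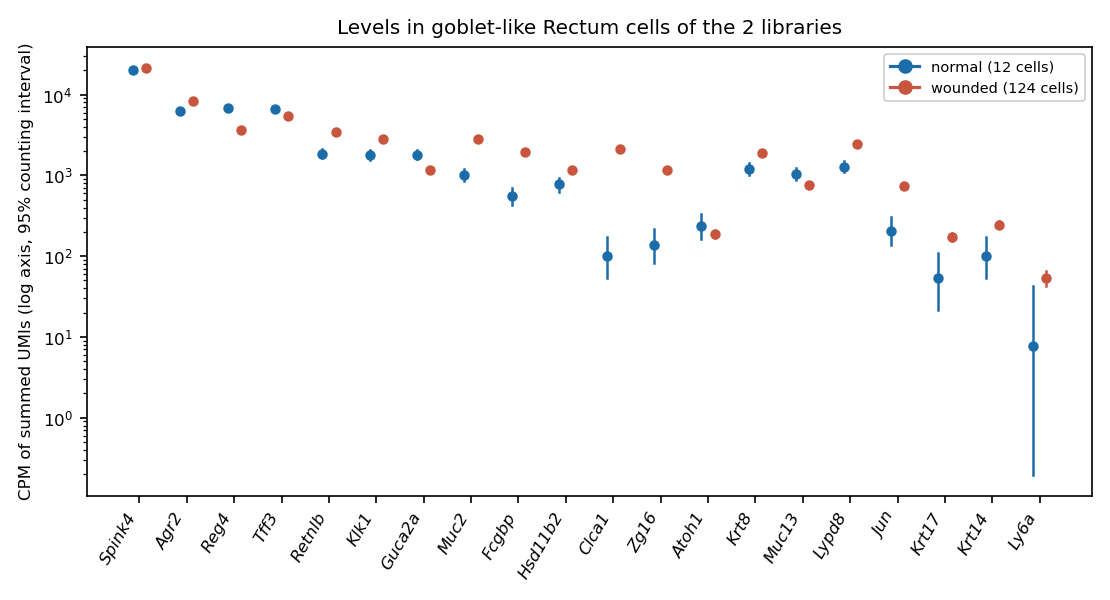
Points are CPM of summed UMIs on a log axis for 20 genes in goblet-like cells of the normal library (12 cells) and the wounded library (124 cells), with lines for the exact Poisson interval at 95%. Clca1 and Zg16 are higher in the wounded library by 4.42 and 3.09 on the log2 scale, the latter 2.18 without the wounded cell richest in Zg16, while Reg4 is lower by 0.90. Of the 18 Zg16 UMIs in normal goblet-like cells, 17 lay in 1 cell.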

How the data were processed

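Cells of the anorectal junction were sequenced with the 10x 3' protocol, 1 library for the normal and 1 for the wounded condition. Raw UMI counts for each gene and barcode were deposited by the authors without normalization. The submitters' notes name Cell Ranger 3.1.0, Seurat 3.2.2 and mm10, and the file headers name Cell Ranger 3.1.0 for the normal and 4.0.0 for the wounded library. The authors also deposited tables of filtered cells (200 to 5000 detected genes, under 25% mitochondrial UMIs) with cluster names and values that are ln(1 + n) for a whole number n, on the natural log scale, by a step not given in the sources used here. Cells and names came from these tables and levels from the counts. The natural log values served 1 alternative.

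UMIs were summed over the cells of a group and library. CPM carry exact Poisson intervals, log2 ratios exact binomial intervals and shares exact Clopper-Pearson intervals, which cover counting error only. A gene at 0 UMIs was set to 3 UMIs as a bound. Genes needed 50 UMIs over both groups and were called at 2-fold. For shares, and in a separate random draw for the goblet-like cells among themselves, cells were thinned to 2000 UMIs, leaving out 0 and 3 goblet-like and other Rectum cells of the normal and 9 and 34 of the wounded library. Doublets were removed by the authors at sorting only, and no caller was run. The calculation of ratios and intervals was tested on simulated data. Members and the 20 gene lists (328 genes) were chosen with earlier results of these data known. Named genes were the rule's genes, list members, and the 15 highest and 10 lowest ratios of the wounded library among genes with at least 100 UMIs. Gene positions are those of GRCm38. Python 3.11.15, numpy 2.4.6, scipy 1.17.1, pandas 2.3.3 and matplotlib 3.10.9 were used. Alternatives changed the limit, the rule's genes, the comparison cells, the minimum, the depth and the cells left out. Values of 1 listed gene are not reported here.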

Additional observations from a re-analysis of the deposited data

Results flagged for a closer look

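Transcripts of the rule's genes were also found in barcodes that the authors' tables of cells left out. In the normal library 23 of 1625 such barcodes had at least 5 UMIs of Muc2 and Fcgbp, and in the wounded library 510 of 13069 did (3.90%). A median of 52.3% and 50.6% of their UMIs was mitochondrial. None of the 23 and 31 of the 510 were under 25%, and 9 of the 510 passed every stated filter on cells.

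Among UMIs that were not mitochondrial, the barcodes left out in the normal library had 4642 CPM of Clca1 and 14060 CPM of Zg16, against 109 and 151 CPM in the goblet-like Rectum cells. Their Spink4 was 3229 CPM against 22033 CPM, and their Tff3 was 19374 CPM against 7317 CPM. In the wounded library Clca1, Zg16 and Tff3 were lower in the barcodes left out, with Clca1 at 1338 CPM in the barcodes left out and 2399 CPM in the goblet-like cells, Zg16 at 1050 and 1314 CPM and Tff3 at 1740 and 6179 CPM. Muc2 there was 2918 CPM in the barcodes left out and 3176 CPM in the goblet-like cells, Spink4 was 6448 and 24109 CPM, and Reg4 was 988 and 4088 CPM. Whether these barcodes were damaged goblet cells or free RNA was not tested.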

How the results depend on the processing

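No paired analysis was possible because each condition is 1 library and the labels give no replicate numbers. Of 94 comparisons of main values with alternatives, 65 stayed within the error or 1.5 times the main count and 29 moved. A reversal was defined only for the median log2 ratios of the secreted products, and 0 of these reversed. The share of goblet-like cells was 9.52% in the normal library with Fcgbp alone, and in the wounded library 24.7% with a limit of 10 UMIs, 25.2% with Muc2 alone and 23.7% with Fcgbp alone. The median log2 ratio of the secreted products in the normal library was 4.62 with a limit of 3 UMIs, 2.97 with 10, 6.32 against cells with 0 UMIs and 3.78 without the deepest 5% of cells. In the wounded library it was 6.27, 3.82 and 6.76 under the first 3 of these, 4.95 from mean per-cell CPM, 5.23 after thinning and 6.03 without the cells with collagen or decorin. Genes at least 2-fold higher in the normal library numbered 209 after thinning, 220 with a minimum of 20 UMIs and 34 with 100, and those lower 815 and 92 with these minimums. In the wounded library 843 were higher and 1096 lower after thinning, 271 and 296 with a minimum of 100, and 1066 lower with 20. With the authors' natural log values 637 were higher and 392 lower, so more genes were then higher than lower, in place of 408 and 562. In wounded over normal goblet-like cells 83 were higher and 48 lower with a minimum of 200, and 285 and 520 after thinning, which turned the balance of higher and lower genes. The causes were not tested.

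Of 3622 gene values under alternatives, 7 changed direction from a main ratio of at least 2-fold, all outside the secretory groups. Changes of sign from smaller main ratios were not counted. Anxa1 in the normal library was 0.15 after thinning. In the wounded library Dsc3 was 0.47 after thinning, Atp12a 0.46 from mean per-cell CPM, Krt6a −0.70 without the deepest cells, and Krt13 2.95, from 10 UMIs in 1 goblet-like cell against 2 UMIs, without the cells with stratified keratins. Col1a2 was 2.50, from 4 UMIs against 1, and Col3a1 at least 1.73, from 7 UMIs against 0 set to 3, without the other Rectum cells with collagen or decorin. Those cells were chosen by Col1a1, Col3a1 and Dcn, so the turn of Col3a1 was fixed by the choice and that of Col1a2 is not independent of it. Leaving out these cells or the cell with immunoglobulin transcripts, the cell richest in Zg16 or the cells richest in Spink4 near the limit, the cells richest in a gene after the division by Clca1, and all alternatives for wounded over normal cells, were chosen after seeing the data. With 12 goblet-like cells in the normal library, 0 of 12 cells with an Ang4 UMI leaves an exact upper limit of 26.5% on the share with one, and genes such as Ang4 and Lgr5 could not be compared there.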

Other observations

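Wound and inflammation genes were lower in goblet-like than in other Rectum cells. In the wounded library 10 of 18 were measured and 8 were at least 2-fold lower, with a median log2 ratio of −1.72. Ly6a, the surface antigen Sca-1 that marks regenerating gut epithelium, had 81 UMIs in 31 of 124 goblet-like cells and 896 UMIs in 105 of 273 other Rectum cells, a log2 ratio of −2.70 (−3.05 to −2.38). In the normal library it had 1 UMI in goblet-like cells and 73 UMIs in 19 of 51 other Rectum cells. Saa1, an acute-phase protein whose reads may be shared with Saa2, had 42.6 CPM in goblet-like and 250 CPM in other Rectum cells of the wounded library, and 0 UMIs against 308 UMIs in the normal library. Il33, an alarmin, had 4 UMIs against 62 UMIs in the wounded library, and Duoxa2, the maturation factor of a hydrogen peroxide-producing oxidase, had 7 UMIs against 88 UMIs. Anxa1, an anti-inflammatory annexin, had 70.9 CPM against 142 CPM in the wounded library.

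Of the posterior Hox genes, which record position along the gut, 0 of 2 measured in the normal and 0 of 5 in the wounded library reached 2-fold. Over all genes 3.85% were higher and 14.2% lower in the normal library, and 5.58% and 7.68% in the wounded library. At these shares so few genes cannot show whether Hox genes differ from the rest. Hoxb13 had log2 ratios of −0.22 (−0.63 to 0.18) and 0.19 (0.03 to 0.35). Of the immediate-early genes, 3 of 8 were at least 2-fold lower and 0 higher in goblet-like cells of the normal library. In the wounded library 1 of 13 was lower and 1 higher, where 7.68% of all genes were lower. Junb, the AP-1 subunit that the study followed, had −0.30 (−1.03 to 0.37) and −0.25 (−0.49 to −0.01).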
